A study of Rattus norvegicus with 12 samples.

Results

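Low oxygen is met in cells by a transcriptional programme that is run by the hypoxia-inducible factors, and 10 genes of that programme were followed here in rat insulinoma cells that received an adenovirus for ChREBPβ: Hif1a, Bnip3, Stc1, Vegfa, Egln1, Egln3, Ankrd37, Adm, Car9 and Ndrg1. They are 10 of 28727 named entries of the count table and were chosen by name, with their changes in these same libraries already known, so that their values are given as a description with no test. All 10 were among the 14669 genes that passed the filter on low counts, although Adm passed it only through the libraries with ChREBPβ. The cells were INS-1 832/13, a clonal line that releases insulin when glucose rises. They carried an adenovirus for GFP, the control, or one for mCherry-tagged mouse ChREBPβ, and were kept for 48 h in 2 mM glucose, called low here, or 11 mM, called high. Each of the 4 groups had 3 libraries, lettered a, b and c, made from amplified RNA. The study describes the libraries of a group as independent experiments, while the labels do not say how they were set up, so p-values measure only the spread between these libraries. The time of 48 h is the one given for this experiment, and the study's general adenovirus methods give a longer one.

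ChREBP, encoded by Mlxipl, is a glucose-responsive transcription factor that binds DNA together with Mlx at paired E-box elements, and ChREBPβ is its short isoform, which lacks the domain that holds the long form inactive in low glucose. In the hypoxia pathway the alpha subunits HIF-1α (Hif1a) and HIF-2α (Epas1) are made continuously, and in oxygen the prolyl hydroxylases (Egln1, Egln2 and Egln3) mark them for destruction by the von Hippel-Lindau protein. When oxygen is low the alpha subunits persist, pair with ARNT and bind hypoxia response elements, whose core is ACGTG or GCGTG, and the genes that respond serve glycolysis, blood vessel growth, pH control and the removal of mitochondria. Most of this control acts on the HIF-1α protein, which was not measured here.

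The sequences before the gene starts are shown first because the hypoxia core ACGTG is also contained in CACGTG, the E-box that factors of the Mlx family recognise. RefSeq promoters of the GRCr8 build, covering 250 bases before and 50 after a start, were given for 8 of the 10 genes. For Bnip3, Ankrd37, Hif1a and Egln3 the 250 bases before the start are printed on the gene's own strand, with every ACGTG or GCGTG of either strand in capitals. Bnip3 (chr1:203154963-203155212, minus strand), Ankrd37 (chr16:53001257-53001506, plus strand) and Hif1a (chr6:98359648-98359897, plus strand) are shown because each holds a CACGTG. Egln3 (chr6:77411016-77411265, minus strand) is shown because its values moved most among the well-measured genes.
Bnip3: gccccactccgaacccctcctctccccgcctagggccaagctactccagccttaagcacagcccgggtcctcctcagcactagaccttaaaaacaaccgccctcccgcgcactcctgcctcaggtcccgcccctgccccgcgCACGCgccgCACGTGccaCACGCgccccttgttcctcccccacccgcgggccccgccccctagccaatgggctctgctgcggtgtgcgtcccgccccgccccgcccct
Ankrd37: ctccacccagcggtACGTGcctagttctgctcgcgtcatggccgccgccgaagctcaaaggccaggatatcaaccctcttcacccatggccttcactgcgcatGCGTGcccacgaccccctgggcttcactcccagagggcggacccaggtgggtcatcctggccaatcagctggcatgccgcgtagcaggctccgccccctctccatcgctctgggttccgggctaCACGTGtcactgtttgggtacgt
Hif1a: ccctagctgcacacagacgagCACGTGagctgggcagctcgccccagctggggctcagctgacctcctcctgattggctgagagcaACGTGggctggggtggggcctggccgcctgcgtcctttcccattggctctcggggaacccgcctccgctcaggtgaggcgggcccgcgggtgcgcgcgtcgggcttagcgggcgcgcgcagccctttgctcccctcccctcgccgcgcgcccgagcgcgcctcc
Egln3: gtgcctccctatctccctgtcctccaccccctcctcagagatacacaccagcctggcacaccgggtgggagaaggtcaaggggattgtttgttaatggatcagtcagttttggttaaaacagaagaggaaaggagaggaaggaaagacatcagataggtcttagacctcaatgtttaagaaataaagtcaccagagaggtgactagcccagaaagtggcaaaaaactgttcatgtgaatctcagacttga
The CACGTG began 99 bases before the start in Bnip3, 23 in Ankrd37 and 229 in Hif1a. Bnip3 had a further GCGTG on the other strand to either side of it, at -108 and -90. Ankrd37 had another ACGTG at -236, a GCGTG at -147 and an ACGTG that starts at -4 and runs across the start, so that it is not in the printed stretch. Hif1a had another ACGTG at -164, Egln1 had a GCGTG at -56, and Egln1 and Car9 each had an ACGTG just after the start. No ACGTG or GCGTG was found in the windows of Egln3, Vegfa and Adm, which says only that these letters are not in these 300 bases. Over the whole window, 5 of the 8 genes held a core of either kind, against 41.6% of all 33469 rat promoters in the table, and 38 of 50 other hypoxia-pathway genes with an entry held one. CACGTG alone was in the windows of 3 of the 8 genes and in 6.42% of all promoters. A match is a description of the letters and not a binding site.

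The libraries held 25754488 to 60531215 counts, with those of GFP in low glucose among the smallest. Depth went largely with the virus. GFP libraries held 25754488 to 46654823 counts. Those of ChREBPβ held 57088794 to 60531215, except low-glucose library a, at 28595982. The TMM factors used to scale the libraries lay between 0.958 and 1.06. Txnip and Pklr, established ChREBP targets, were higher with ChREBPβ at both glucose levels, Txnip by 4.12 ± 0.05 (log2 fold change ± SE) in low glucose and by 0.93 ± 0.05 in high glucose. Mlxipl itself was at 240 to 277 and 202 to 212 CPM (counts scaled to the library's size) with GFP in low and high glucose and at 199 to 212 and 181 to 201 CPM with ChREBPβ. A table entry named ChREBPb was at 73.2 to 82.2 and 64.7 to 73.3 CPM in the GFP groups and at 89.7 to 90.7 and 81.4 to 98.3 CPM with ChREBPβ, a difference of 0.21 ± 0.06 in low glucose and 0.37 ± 0.06 in high glucose (log2 ± SE), and what it counts is not given in the sources used here. Summed over 8 β-cell markers, the level was 23185 to 26106 CPM with GFP and 12502 to 12914 CPM with ChREBPβ in low glucose, and 18842 to 20702 CPM and 11814 to 12381 CPM in high glucose, while the summed endothelial, fibroblast and leukocyte markers stayed at or below 8.82 CPM in every library, with Emcn, Dcn and Ptprc at 0 in all of them. At both glucose levels this lower marker level moved with the virus, as do the changes described here, and its part in them was not tested. These are bulk RNA levels relative to the bulk of genes, in which fewer cells of a type and less RNA per cell cannot be told apart.

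A gene was called changed when its adjusted p in edgeR's quasi-likelihood test was under 0.05 and the change was at least 1.2-fold. With ChREBPβ in low glucose, 3 of the 10 genes were called higher (Egln3, Egln1 and Adm) and 2 lower (Stc1 and Bnip3), where 21.0% of all tested genes were called higher and 23.2% lower. In high glucose 3 were higher (Egln3, Adm and Ndrg1) and the same 2 lower, against 14.3% and 19.1% of all tested genes. The median log2 change of the 10 was -0.03 in low glucose and 0.08 in high glucose, and that of all tested genes was -0.02 at both. Because the genes were named with these contrasts in view, nothing is read from the counts. Adm moreover passed the filter only through its ChREBPβ libraries, so a call of higher was the only likely one for it. Scaled by library totals in place of TMM, the median of all tested genes moved down by up to 0.10 on the log2 scale, and the share of called genes that were higher went from 47.5% to 33.2% in low glucose and from 42.9% to 29.3% in high glucose. Among the virus changes of the 10 genes, 3 near 0 turned their sign with another scaling, Ndrg1 in low glucose and Ankrd37 in high glucose with library totals and Vegfa in high glucose with the RLE factors, and none of these was called.

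**Figure D1:**
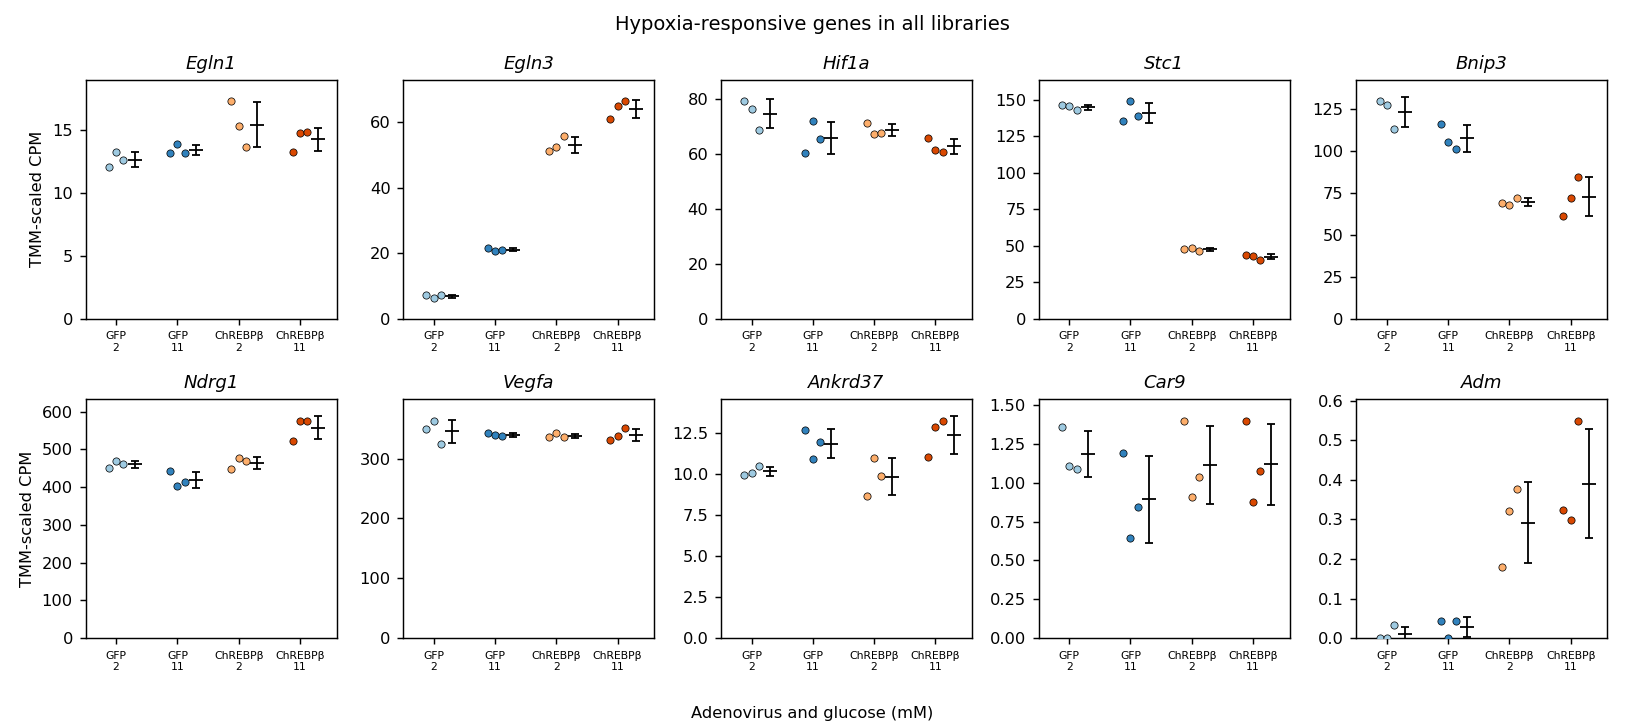
TMM-scaled CPM of each of the 10 genes in the 12 libraries, from 0 on each axis. Points are libraries a, b and c of each group, and the bar beside them is the group mean ± SD (n = 3). The 6 ChREBPβ libraries lie below all GFP libraries for Stc1 and Bnip3 and above them for Egln3 and Adm, while those of Vegfa and Car9 overlap.

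Egln3, the prolyl hydroxylase that is itself induced in hypoxia and feeds back on the HIF-α subunits, had the widest range among the genes with more than a few counts. With GFP in low glucose its libraries a, b and c held 7.17, 6.39 and 7.15 CPM, and in high glucose 21.5, 20.8 and 21.0 CPM. With ChREBPβ they held 51.2, 52.6 and 55.9 CPM in low glucose and 61.2, 65.0 and 66.4 CPM in high glucose. The 4 groups did not overlap, and the order was GFP in low glucose, GFP in high glucose, ChREBPβ in low glucose and ChREBPβ in high glucose. The ChREBPβ virus in low glucose therefore stood above the GFP virus in high glucose. The ChREBPβ virus changed it by 2.95 ± 0.07 in low glucose and 1.60 ± 0.05 in high glucose. Glucose alone raised Egln3 by 1.62 ± 0.07 with GFP and by 0.27 ± 0.05 with ChREBPβ. The virus and glucose comparisons share libraries, so their sizes are not independent of each other. The rise with glucose under ChREBPβ sat at the edge of the 1.2-fold limit. It was 0.25 with library totals and 0.24 to 0.26 without ChREBPβ low-glucose library a or b or ChREBPβ high-glucose library b or c, all below the limit.

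Egln1, the main prolyl hydroxylase in most cells, differed far less. Its libraries held 12.1, 13.3 and 12.6 CPM with GFP in low glucose and 17.3, 15.4 and 13.7 CPM with ChREBPβ in low glucose. The ranges did not overlap, and ChREBPβ library a was the highest. The change of 0.27 ± 0.08 was just past the limit, and it was 0.20 without that library, 0.24 without GFP library a and 0.17 with library totals, no longer called in any of the 3. In high glucose GFP gave 13.2, 13.9 and 13.2 CPM and ChREBPβ 13.2, 14.8 and 14.9 CPM, which overlap.

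Hif1a RNA, for the subunit itself, was 79.2, 76.3 and 68.9 CPM with GFP in low glucose and 60.4, 72.1 and 65.5 CPM in high glucose. With ChREBPβ it was 71.4, 67.2 and 67.7 CPM in low glucose and 65.8, 61.6 and 60.9 CPM in high glucose. The viruses overlapped at both glucose levels, with differences of -0.12 ± 0.06 and -0.07 ± 0.06 that were not called.

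Stc1 encodes stanniocalcin-1, a secreted glycoprotein known as a hypoxia target. It was lower with ChREBPβ. GFP libraries held 146, 146 and 143 CPM in low glucose and 135, 149 and 139 CPM in high glucose. ChREBPβ libraries held 48.0, 48.2 and 46.3 CPM in low glucose and 43.7, 42.8 and 40.4 CPM in high glucose. The lowest GFP library was far above the highest ChREBPβ library at either glucose level. The change of Stc1 with ChREBPβ was -1.61 ± 0.05 in low glucose and -1.74 ± 0.05 in high glucose on the log2 scale, and the difference between these changes, -0.13 ± 0.07, was not called. Glucose moved it by -0.04 ± 0.04 with GFP and by -0.17 ± 0.05 with ChREBPβ, neither of them called. Both glucose changes were thus small beside the change with the virus.

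Bnip3 encodes a mitochondrial BH3-type protein that promotes the removal of mitochondria by autophagy. It held 130, 127 and 113 CPM with GFP in low glucose and 116, 105 and 101 CPM in high glucose. With ChREBPβ it held 68.8, 67.7 and 72.0 CPM in low glucose and 61.3, 72.2 and 84.5 CPM in high glucose. The viruses did not overlap at either glucose level, but the 3 libraries with ChREBPβ in high glucose were widely spread, from library a to library c. The change was -0.83 ± 0.08 in low glucose and -0.57 ± 0.08 in high glucose. The difference of 0.26 ± 0.12 between these changes was not called, though it was 0.37 and called without library a of ChREBPβ in high glucose.

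Ndrg1, a stress-responsive gene of the NDRG family, had its highest level with ChREBPβ in high glucose. GFP libraries held 451, 468 and 461 CPM in low glucose and 443, 402 and 413 CPM in high glucose. ChREBPβ libraries held 447, 478 and 468 CPM in low glucose and 522, 575 and 574 CPM in high glucose. The ChREBPβ group in high glucose lay above every other library, the GFP group in high glucose lay below every other library, and the low-glucose groups overlapped. The virus changed Ndrg1 by 0.01 ± 0.05 in low glucose and 0.41 ± 0.05 in high glucose. With ChREBPβ the change from 2 to 11 mM was 0.26 ± 0.05, just short of the 1.2-fold limit. It was past the limit, at 0.26 to 0.31, with the RLE factors, DESeq2, no filter or a stricter one and without ChREBPβ low-glucose library b or c or ChREBPβ high-glucose library a. With GFP the same change was -0.13 ± 0.05 and was not called.

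Ankrd37, an ankyrin-repeat protein that is a known HIF-1 target, followed glucose more than virus. It held 9.96, 10.1 and 10.5 CPM with GFP in low glucose and 12.7, 10.9 and 11.9 CPM in high glucose. With ChREBPβ it held 8.67, 11.0 and 9.88 CPM in low glucose and 11.1, 12.9 and 13.2 CPM in high glucose. The viruses overlapped at both glucose levels, and the higher glucose was above the lower in all libraries of each virus, by a narrow margin with ChREBPβ. The glucose change was 0.22 ± 0.10 with GFP, not called, and 0.32 ± 0.09 with ChREBPβ, called. The second was lost on leaving out any of 5 single libraries, GFP high-glucose c, ChREBPβ low-glucose a or c and ChREBPβ high-glucose b or c. The first was called, at 0.28, without GFP high-glucose library b.

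Vegfa, the angiogenic growth factor and a classical HIF target, did not separate the groups. GFP libraries held 349, 363 and 325 CPM in low glucose and 343, 339 and 337 CPM in high glucose. ChREBPβ libraries held 336, 342 and 335 CPM in low glucose and 331, 337 and 351 CPM in high glucose. The lowest and the highest of the 12 libraries were both of GFP in low glucose. The virus changed Vegfa by -0.03 ± 0.04 in low glucose, and the estimate in high glucose was smaller than its SE of 0.04.

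Car9 and Adm were scarce. Car9, the membrane carbonic anhydrase often used as a marker of hypoxia in tumours, lay between 0.64 and 1.40 CPM in the 12 libraries, and all groups overlapped. Adm encodes adrenomedullin, a vasodilator peptide. Its raw counts in libraries a, b and c were 0, 0 and 1 with GFP in low glucose and 2, 0 and 2 with GFP in high glucose. With ChREBPβ they were 5, 18 and 21 in low glucose and 19, 17 and 30 in high glucose. Most ChREBPβ libraries were deeper than the GFP ones. In CPM as in counts, every ChREBPβ library was above every GFP library. Taking 3 counts per library as the floor for GFP, the ChREBPβ mean of Adm was 2.98 times this floor in low glucose and 5.57 times in high glucose. Even so Adm was at 0.29 ± 0.10 and 0.39 ± 0.14 CPM with ChREBPβ (SD, n = 3), so that the counting error is large. The floor allows for counting error only, and only on the GFP side.

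**Figure D2:**
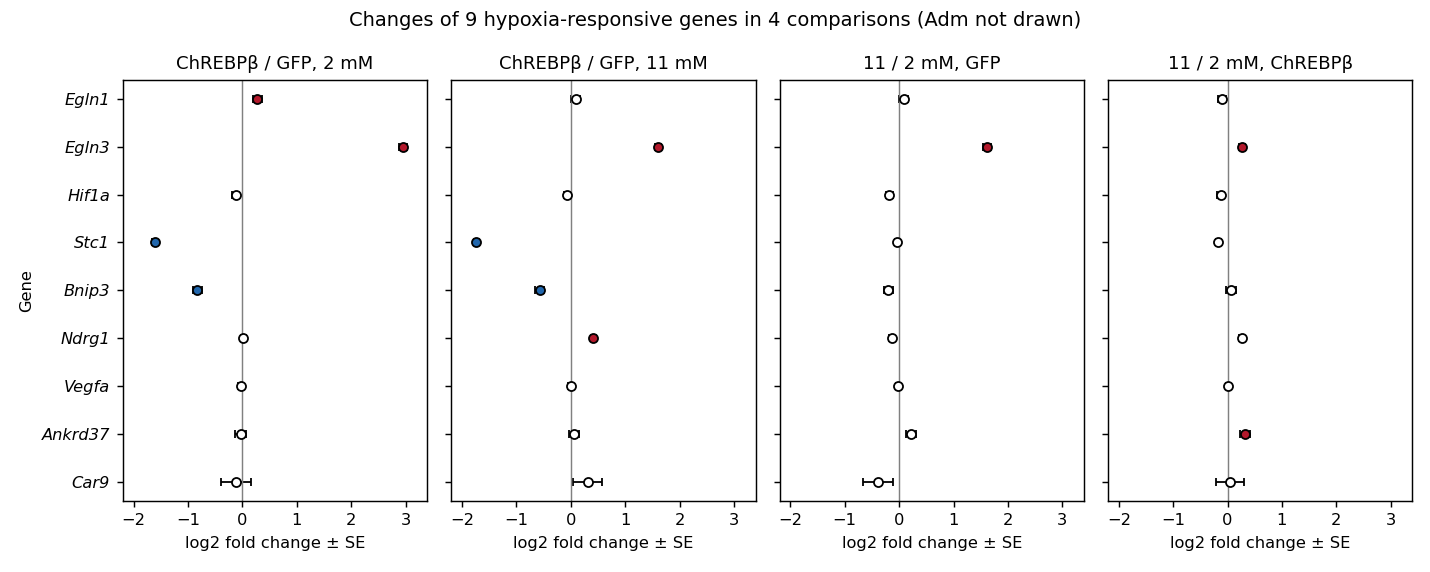
Log2 fold change ± SE of 9 of the genes for ChREBPβ against GFP at 2 and 11 mM and for 11 against 2 mM glucose with each virus. Red points were called higher, blue points lower and open points not called, and Adm is not drawn because its GFP libraries were at the floor. Egln3 moves from 2.95 and 1.60 with the virus to 1.62 with glucose under GFP and 0.27 under ChREBPβ, while Stc1 and Bnip3 are lower with the virus and open in both glucose panels.

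Glucose gave fewer calls than the virus among the 10 genes and also over all tested genes. Of all 14669, 6476 and 4904 were called with the virus in low and high glucose. With glucose 2963 were called under GFP and 567 under ChREBPβ, so nothing is read from the counts of the 10. With GFP 1 of the 10, Egln3, was called, where 10.2% of tested genes were called higher and 10.0% lower. With ChREBPβ Egln3 and Ankrd37 were called higher, where 0.988% of tested genes were higher and 2.88% lower. The difference between the ChREBPβ effects in high and low glucose was called for Egln3, at -1.35 ± 0.09, and for Ndrg1, at 0.40 ± 0.07, where 4.74% of tested genes had a lower effect in high glucose and 1.56% a higher one. For Egln3 the levels with ChREBPβ were close at both glucose levels while those with GFP were not. For Ndrg1 both high-glucose groups stood apart from the low-glucose ones, ChREBPβ above and GFP below them.

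The other genes of oxygen sensing were taken from a list of 8, of which 7 could be tested. The list was drawn up with earlier results of these data known, so the p-values of its genes are no separate support. In low glucose 1 of them rose, 3 fell and 3 were not called, and in high glucose 1 rose, 2 fell and 4 were not called. Over all tested genes 21.0% rose and 23.2% fell in low glucose and 14.3% rose and 19.1% fell in high glucose, so with 7 genes nothing is read from these counts. Epas1, for HIF-2α, held 87.8, 85.4 and 90.2 CPM with GFP in low glucose against 30.4, 31.7 and 30.6 CPM with ChREBPβ, and 70.0, 74.2 and 69.7 CPM against 31.2, 29.4 and 29.0 CPM in high glucose. The viruses were far apart at both glucose levels. The change of Epas1 was -1.50 ± 0.05 in low glucose (edgeR, Benjamini-Hochberg adjusted p = 1.17e-15) and -1.25 ± 0.05 in high glucose (adjusted p = 2.52e-14). The difference between these changes, 0.25 ± 0.07, was just short of the 1.2-fold limit (edgeR adjusted p = 0.0258), and it was called, at 0.27 to 0.28, with library totals and on leaving out library b of either low-glucose group or of GFP in high glucose or library c of ChREBPβ in high glucose. Epas1 was also lower in high than in low glucose with GFP, with a change of -0.30 ± 0.05 (edgeR adjusted p = 4.37e-05). Hif1a, for the other alpha subunit, was not called in any of the 5 comparisons.

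Among the partners, Arnt2, a relative of ARNT found mainly in neural and neuroendocrine cells, fell by 0.56 ± 0.06 on the log2 scale in low glucose and by 0.55 ± 0.06 in high glucose (edgeR adjusted p = 6.20e-08 and 9.57e-08). Arnt itself was not called, at 26.5 to 27.7 CPM with GFP and 25.0 to 27.7 CPM with ChREBPβ in low glucose. Hif1an, the asparaginyl hydroxylase that blocks coactivator binding, rose by 0.38 ± 0.06 and 0.32 ± 0.06 (edgeR adjusted p = 1.21e-05 and 8.83e-05), and the second was 0.23 and not called with library totals. Cited2, a competitor of the HIF subunits for the coactivator p300, fell by 0.40 ± 0.10 in low glucose (edgeR adjusted p = 0.00136), and in high glucose its change was -0.03 ± 0.09. With GFP it was also lower in high than in low glucose, with a change of -0.44 ± 0.10 (edgeR adjusted p = 0.00138). Vhl and the third prolyl hydroxylase Egln2 were not called at either glucose level, with changes from -0.04 to 0.03. Hif3a had too few counts to be tested.

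**Figure D3:**
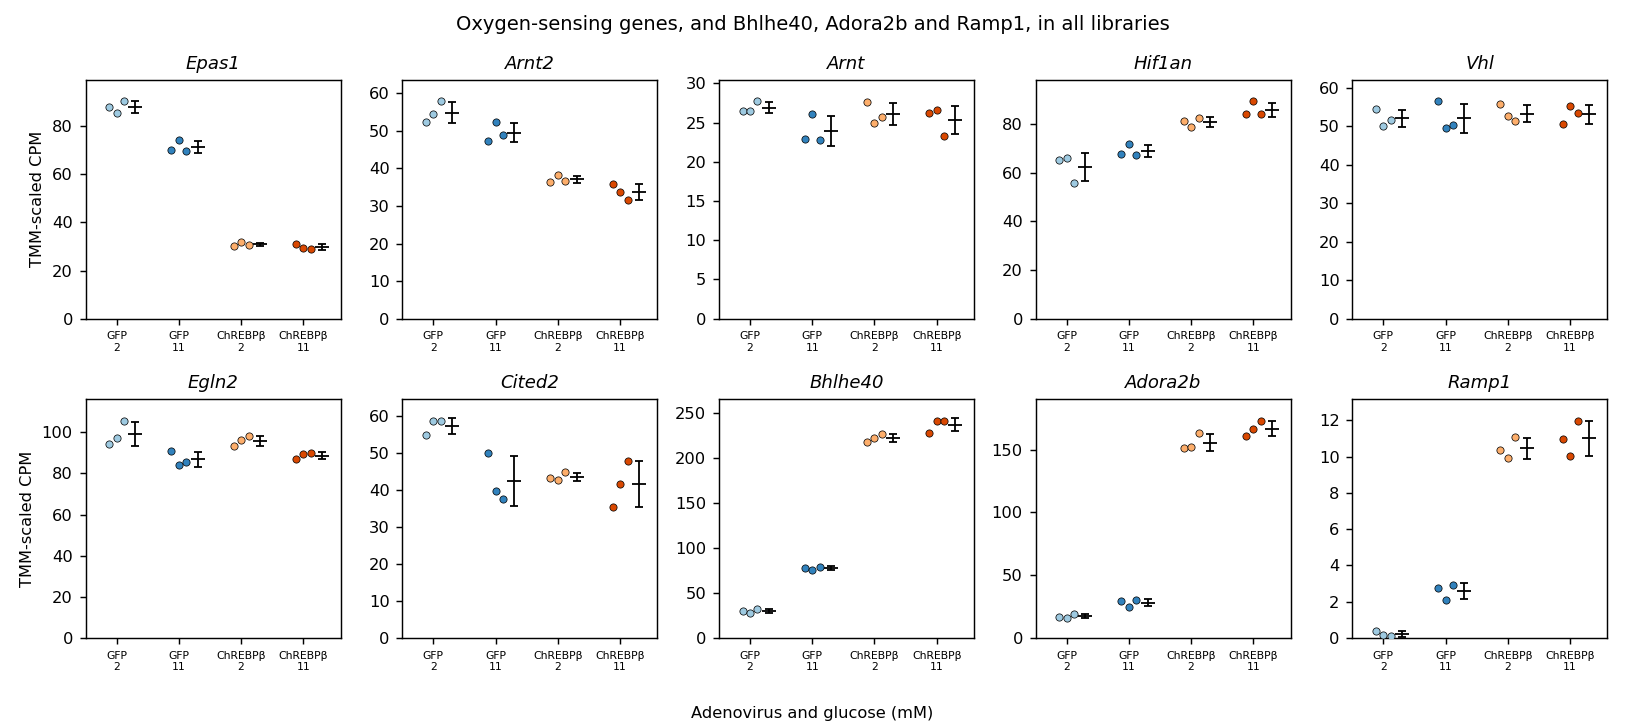
TMM-scaled CPM in the 12 libraries of the 7 tested oxygen-sensing genes and of Bhlhe40, Adora2b and Ramp1. Points are libraries a, b and c, and the bar is the group mean ± SD (n = 3). Epas1 and Arnt2 are lower in all ChREBPβ libraries than in GFP libraries at the same glucose, Vhl and Egln2 overlap, and Bhlhe40, Adora2b and Ramp1 sit near the same level in both ChREBPβ groups.

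In all, 58 further genes known from the hypoxia response were listed by role, and 47 could be tested. With ChREBPβ in low glucose 19 rose, 11 fell and 17 were not called, with a median log2 change of 0.04, where 21.0% of all tested genes rose and 23.2% fell. In high glucose 19 rose, 8 fell and 20 were not called, with a median of 0.08, where 14.3% of all tested genes rose and 19.1% fell. The share of the 47 that fell was thus near that of all tested genes at both glucose levels. All these lists were chosen with earlier results of these data known, so their counts are a description. The same shares of all tested genes apply to the lists by role, most of which are small. Glycolysis had 9 of 13 tested genes higher and 1 lower at each glucose level, with medians of 0.65 and 0.41. The 5 tested genes of collagen and matrix had 3 lower and 0 higher in low glucose and 2 lower and 0 higher in high glucose, with medians of -0.37 and -0.30. The list of mitochondria and growth brake had 3 higher and 3 lower of 9 in low glucose, and 3 higher and 2 lower in high glucose. The genes given below with p-values were the called ones with the largest changes in their list at either glucose level. Small p-values for the virus follow from that choice and are no separate support.

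In the glycolysis list, Pfkfb3, the enzyme that makes the activator of phosphofructokinase, rose by 1.96 ± 0.06 in low glucose and 0.97 ± 0.05 in high glucose (edgeR adjusted p = 1.54e-16 and 3.28e-12). Gpi, glucose-6-phosphate isomerase, rose by 1.44 ± 0.05 and 1.03 ± 0.04 (edgeR adjusted p = 8.68e-16 and 2.19e-13). Some members of this list, such as Gapdh and Tpi1, belong to families with near-identical copies, and how shared reads were counted is not given in the sources used here. Glycolytic enzymes are also known targets of ChREBP, so this list is shared with the glucose response.

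Mxi1, an antagonist of Myc and a member of the Max network, rose by 1.02 ± 0.04 in low glucose and 0.98 ± 0.04 in high glucose (edgeR adjusted p = 2.77e-14 and 6.87e-14). Ddit4, an inhibitor of mTORC1, rose by 0.60 ± 0.09 in high glucose (edgeR adjusted p = 1.96e-05), and its 0.24 ± 0.10 in low glucose was below the fold limit. The low-glucose change of Ddit4 was called, at 0.28 to 0.32, without GFP low-glucose library b or c or ChREBPβ low-glucose library a. Ndufa4l2, a mitochondrial protein strongly induced by HIF-1 in many cells, fell by 0.89 ± 0.27 in low glucose (edgeR adjusted p = 0.00829) and was at -0.16 ± 0.27 in high glucose. It was scarce, at 0.57 to 2.39 CPM, and the call in low glucose was lost, at -0.60, without GFP library b.

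Of the secreted and vascular genes, 5 of 10 could be tested, and 3 rose and 1 fell at each glucose level. Adora2b, the low-affinity adenosine receptor, was at 16.8, 16.2 and 19.1 CPM with GFP and 151, 152 and 163 CPM with ChREBPβ in low glucose. It rose by 3.16 ± 0.07 in low glucose and 2.56 ± 0.07 in high glucose (edgeR adjusted p = 5.22e-18 and 9.85e-17). Pdgfb, a platelet-derived growth factor subunit, rose by 1.91 ± 0.13 and 2.07 ± 0.12 (edgeR adjusted p = 1.96e-10 and 2.65e-11). These rises stood beside a Vegfa level that did not separate the viruses.

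The transcriptional repressors Bhlhe40 and Bhlhe41, clock-linked factors that bind E-boxes and are induced in hypoxia, both rose. Bhlhe40 held 30.0, 28.1 and 32.9 CPM with GFP in low glucose, 78.2, 75.6 and 79.2 CPM with GFP in high glucose, 218, 222 and 227 CPM with ChREBPβ in low glucose and 228, 241 and 241 CPM with ChREBPβ in high glucose. This is the same order of groups as for Egln3. Bhlhe40 rose with ChREBPβ by 2.87 ± 0.05 in low glucose and 1.61 ± 0.05 in high glucose (edgeR adjusted p = 2.54e-19 and 7.13e-16). Bhlhe41 rose by 1.12 ± 0.06 and 1.00 ± 0.06 (edgeR adjusted p = 8.83e-12 and 3.93e-11). The 3 histone demethylases of the same list were not called at either glucose level.

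Tfrc, the transferrin receptor, rose by 1.02 ± 0.04 in low glucose and 0.57 ± 0.04 in high glucose (edgeR adjusted p = 2.38e-14 and 3.18e-10), and the other 2 tested genes of pH, iron and heme were not called. Ero1a, the oxidase that drives disulfide formation in the endoplasmic reticulum, fell by 0.51 ± 0.05 and 0.47 ± 0.05 (edgeR adjusted p = 4.77e-08 and 1.57e-07). The collagen prolyl hydroxylase subunit P4ha2 fell by 0.28 ± 0.06 and 0.30 ± 0.06 (edgeR adjusted p = 4.39e-04 and 2.15e-04), and the first was lost without GFP or ChREBPβ low-glucose library c, at -0.23 and -0.26. The lysyl hydroxylase Plod1 fell by 0.37 ± 0.10 in low glucose (edgeR adjusted p = 0.00327), was not called at -0.25 without GFP library b, and was at 0.07 ± 0.10 in high glucose.

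**Figure D4:**
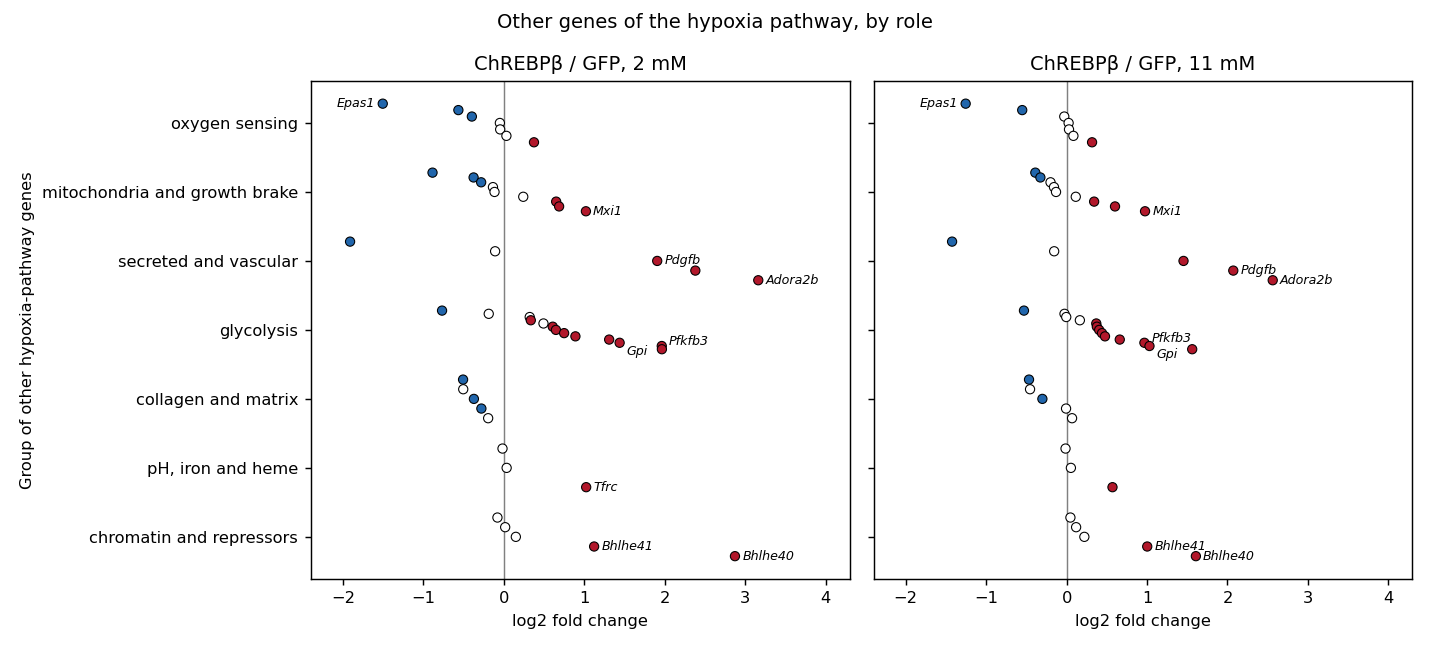
Log2 fold change of ChREBPβ against GFP at 2 mM (left) and 11 mM (right) for the 47 tested genes of the hypoxia pathway other than the 10, in rows by role. Each point is a gene, red if called higher, blue if lower and open if not called, and those named in the text with a change over 0.9 in size are labelled. Glycolysis lies mostly to the right and collagen and matrix to the left at both glucose levels.

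Glucose with GFP raised 13 of the 47 genes and lowered 4, where 10.2% of all tested genes rose and 10.0% fell. With ChREBPβ it raised 4 of the 47 and lowered 0, where 0.988% of all tested genes rose and 2.88% fell. The difference between the ChREBPβ effects in high and low glucose was called lower for 10 of the 47 and higher for 0, against 4.74% and 1.56% of all tested genes. The 10 included Adora2b, Pfkfb3, Gpi, Tfrc and Bhlhe40. In these 5 genes the level with GFP rose from 2 to 11 mM, while with ChREBPβ it was in low glucose already above the GFP level in high glucose. For Bhlhe40 the rise with glucose was 1.36 ± 0.05 with GFP (edgeR adjusted p = 4.87e-13) and 0.09 ± 0.05 with ChREBPβ, and for Pfkfb3 it was 1.29 ± 0.06 and 0.29 ± 0.05 (edgeR adjusted p = 2.34e-12 and 7.89e-04).

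**Figure D5:**
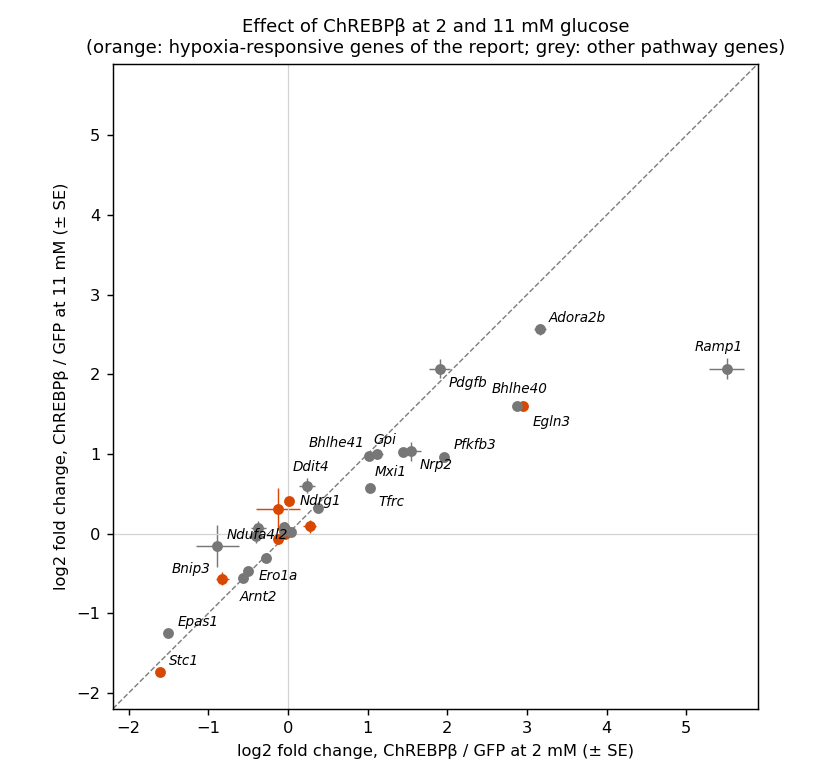
Log2 fold change ± SE of ChREBPβ against GFP at 2 mM (horizontal) and at 11 mM (vertical) for 9 of the 10 genes (orange, Adm not drawn) and for the other named pathway genes (grey). On the dashed line both effects are equal. Stc1, Bnip3, Epas1 and Mxi1 lie near the line, whereas Egln3, Bhlhe40, Pfkfb3 and Ramp1 lie below it, with a smaller effect at 11 mM.

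The genes most like Stc1 and Bnip3 in pattern were sought among 10468 tested genes whose mean reached 5 CPM, by the root mean square difference of their 4 centred group means of log2 CPM. For Stc1 these were Cyp4a8, St3gal1 and Tmem163, with differences of 0.05, 0.10 and 0.10 on the log2 scale. Their changes with ChREBPβ were -1.67, -1.53 and -1.75 in low glucose and -1.61, -1.48 and -1.66 in high glucose. For Bnip3 they were Dock11, Tbc1d19 and Arg1, all within 0.02 on the log2 scale. With 4 group means a close match is easily found among so many genes, and likeness of pattern was the only thing these genes were picked on.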

How the data were processed

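RNA was measured in 12 libraries of INS-1 832/13 cells, amplified before paired-end sequencing. The authors deposited raw read counts per gene, with no normalization, and unscaled group means that were not used. The submitters' processing notes name build Rnor_6.0 and edgeR. The aligner and counter are not given in the sources used here. One entry with no name, 0.0043% to 0.00601% of a library, was left out.

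Groups follow the labels. With R 4.3.3 and edgeR 4.0.16, counts were filtered with filterByExpr, scaled by TMM and fitted in 1 quasi-likelihood model over the 4 groups, with Benjamini-Hochberg adjustment over 14669 genes in each contrast. A change was called with an adjusted p under 0.05 and at least 1.2-fold. The SE is the log2 change over the root of F. CPM are TMM-scaled. A group whose libraries each had 3 counts or fewer was at the floor. The code was tested on simulated data with few changed genes, evenly up and down, which cannot show how well the scaling suits these data. The alternatives were RLE factors, library totals, DESeq2 1.42.0, no filter, a minimum of 10 counts per library, no minimum fold change, a replicate block, fits of only the groups compared and leaving out each library.

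The members and gene lists were chosen with earlier results of these data known. Named besides the 10 were all oxygen-sensing genes, the 2 called genes of each other list with the largest change at each glucose level and a mean of at least 1 CPM, the 3 genes most like Stc1 and Bnip3, and checks of the virus. Promoters came from RefSeq (GRCr8), matched by symbol, and were searched on both strands, CACGTG counting as 2 overlapping ACGTG.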

Additional observations from a re-analysis of the deposited data

Results flagged for a closer look

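The effect of ChREBPβ differed between the glucose levels for 8 of the named genes, as tested by the interaction term of the edgeR model. Each value is the log2 fold change at 11 mM minus that at 2 mM. Among the 10 hypoxia-responsive genes it was -1.35 ± 0.09 for Egln3 and 0.40 ± 0.07 for Ndrg1, given as a description.

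Of the other pathway genes, Bhlhe40 had a difference of -1.27 ± 0.07 (edgeR adjusted p = 2.93e-10), Pfkfb3 -0.996 ± 0.07 (adjusted p = 2.40e-08), Adora2b -0.60 ± 0.10 (adjusted p = 4.08e-04), Tfrc -0.45 ± 0.06 (adjusted p = 2.44e-05) and Gpi -0.41 ± 0.06 (adjusted p = 2.93e-04). Ramp1 had the largest, -3.44 ± 0.30 (edgeR adjusted p = 2.70e-07), and its counts with GFP at 2 mM were low. These genes were named for their large changes in the same libraries, so their p-values are no separate support. Which genes are in the set depends on the settings. Plod1, not called here, was called at 0.44 to 0.53 with RLE factors, library totals, DESeq2 or no filter. It was also called without certain single libraries. Cited2 (0.37 to 0.50), Ddit4 (0.36 to 0.45) and Nrp2 (-0.66 to -0.51) were called with no filter and without certain single libraries. The cause of these differences was not tested.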

How the results depend on the processing

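Of the 10 counts of called genes (10 hypoxia-responsive and 47 other pathway genes in 5 comparisons), those for ChREBPβ against GFP moved little. Over all alternatives the 10 genes had 4 to 5 calls at each glucose level, and the other genes 27 to 33 at 2 mM and 24 to 29 at 11 mM. The glucose counts moved more. With GFP, 1 call among the 10 genes became 3 with no minimum fold change and 1 to 2 on leaving out single libraries. With ChREBPβ, 2 calls became 1 with library totals and 4 with no minimum fold change, and 0 to 3 on leaving out single libraries (0 without ChREBPβ 2 mM a or ChREBPβ 11 mM b or c), while the 4 calls among the other genes became 9 with no minimum fold change. The deviations of same-letter libraries were hardly correlated (18 correlations from -0.11 to 0.06), which cannot tell whether such libraries were set up together. With the letter as a replicate block the 10 genes had 5, 5, 1, 2 and 2 calls, as without it, and the other genes 30, 27, 16, 4 and 10. Of 15 called changes among the 10 genes 3 were lost in at least 1 alternative in which the gene was tested (Egln1 at 2 mM, and Egln3 and Ankrd37 with glucose under ChREBPβ), and 0 changed sign. The virus changes of Adm are not counted among these 3. Adm was tested in 17 of 19 alternatives at 2 mM and 18 at 11 mM. In the rest it failed the filter, so its call was missing there too. Depth limits Adm and Car9, which have few counts, and changes near 1.2-fold, whose calls turn on single libraries.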

Other observations

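Receptors and relatives of the 10 genes were listed as well, 17 in all with 13 tested. With ChREBPβ 2 rose and 5 fell at 2 mM, and 4 rose and 5 fell at 11 mM, where 21.0% of all tested genes rose and 23.2% fell at 2 mM and 14.3% rose and 19.1% fell at 11 mM. Ramp1, an accessory protein that forms receptors for peptides of the adrenomedullin and CGRP family with Calcrl, held 0.404, 0.175 and 0.128 CPM in the GFP libraries of 2 mM glucose and 2.77, 2.09 and 2.92 CPM in those of 11 mM. In the ChREBPβ libraries it held 10.4, 9.91 and 11.1 CPM in 2 mM glucose and 11.0 ± 0.95 CPM (SD, n = 3) in 11 mM. It rose with ChREBPβ by 5.51 ± 0.22 at 2 mM and 2.07 ± 0.13 at 11 mM (edgeR adjusted p = 3.25e-14 and 7.07e-11), and with glucose under GFP by 3.51 ± 0.27 (edgeR adjusted p = 1.06e-08). Calcrl itself was at 0.51 to 1.82 CPM in the 12 libraries. Nrp2, a coreceptor for vascular endothelial growth factors, rose by 1.54 ± 0.13 and 1.03 ± 0.12 with ChREBPβ (edgeR adjusted p = 3.65e-09 and 3.51e-07). Ramp1 and Nrp2 were named as the called genes of this list with the largest changes.

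Angptl4, a secreted inhibitor of lipoprotein lipase and a hypoxia target, did not pass the filter and was singled out after its values were seen. Its counts were 0 in all 6 GFP libraries, 1, 3 and 0 with ChREBPβ at 2 mM and 29, 11 and 16 with ChREBPβ at 11 mM. The ChREBPβ libraries at 11 mM were deeper than any GFP library. Taking 3 counts per library as the floor for GFP, with both in CPM, the ChREBPβ mean of Angptl4 at 11 mM was 4.66 times this floor.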
